A study of Mus musculus with 10 samples.

Results

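The genes described here are the 4 adult hemoglobin genes of the mouse, Hbb-bs, Hbb-bt, Hba-a1 and Hba-a2, with Alas2 and Slc4a1, which immature red cells also express. These 6 rows were taken by gene name from the 54532 genes of the P30 table, and all 6 passed the filter on low values that left 20448 genes to test. RNA-seq was run at P30 on the whole lung of 10 wild-type C57BL/6J mice that had surgery at P7. Pups of both sexes were used per the study's methods, but sex-linked expression in these lungs split by group, as given below. In the 5 mice with increased pulmonary blood flow (IPF), the abdominal aorta was punctured into the inferior vena cava to make an aortocaval fistula. The 5 sham mice had the same anesthesia and laparotomy without the puncture. Lungs for RNA were removed and frozen whole. Perfusion with PBS is described by the study for lungs that were fixed or dissociated, and how much blood the sequenced lungs held is not stated, so globin mRNA serves here as its measure. The comparison asks whether that measure differed between the groups.

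Hemoglobin carries oxygen in the red cell as a tetramer with a pair of α chains, encoded by the Hba genes, and a pair of β chains, encoded by the Hbb genes. Mature mouse red cells have no nucleus, and the globin mRNA found in blood comes mostly from reticulocytes, the youngest circulating cells. Alas2 encodes the erythroid form of 5-aminolevulinate synthase, the first enzyme of heme synthesis, and Slc4a1 encodes band 3, the anion exchanger of the red cell membrane. Lung tissue makes heme through the housekeeping enzyme encoded by Alas1.

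Each pair of globin genes is a near-identical duplicate, which limits how far its members can be measured apart. The coding sequences of Hba-a1 and Hba-a2 share 428 of 429 bases, and those of Hbb-bs and Hbb-bt share 443 of 444 bases, in the longest reading frame of the GENCODE transcripts. The single differences are C381T for Hba-a1 to Hba-a2 and C417T for Hbb-bs to Hbb-bt, counted from 1 at the A of the start codon. Both fall in the third base of a codon and leave the encoded residue the same. The coding stretches around them are given because they mark the only coding base at which a read could be assigned, with that base in capitals.
Hba-a1: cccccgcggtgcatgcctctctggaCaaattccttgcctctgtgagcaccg
Hba-a2: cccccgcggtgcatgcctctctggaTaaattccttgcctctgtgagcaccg
Hbb-bs: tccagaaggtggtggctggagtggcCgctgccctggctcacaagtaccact
Hbb-bt: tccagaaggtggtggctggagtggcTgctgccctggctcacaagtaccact

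Of the 150-base windows of the Hba-a1 transcript, 61.0% also occur in Hba-a2, and 72.1% of the windows of Hba-a2 occur in Hba-a1. The shares are 54.6% for Hbb-bs in Hbb-bt and 50.6% for Hbb-bt in Hbb-bs. A read of 150 bases can therefore match both copies, so the split within each pair is uncertain, and the sums over a pair depend less on it. How such reads were counted is not stated, and if they were dropped, the sums are too low. In the deposited table, whose positions are those of GRCm38, Hbb-bs lies at chr7:103826534-103828096 and Hbb-bt at chr7:103812524-103813996, both on the minus strand. Hba-a1 lies at chr11:32283511-32284465 and Hba-a2 at chr11:32296489-32297298, both on the plus strand. Alas2 lies at chrX:150547375-150570638 on the plus strand and Slc4a1 at chr11:102348824-102366203 on the minus strand. All 6 are protein-coding.

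The 150 bases before the RefSeq start site (GRCm38.p6) are shown for genes whose levels moved together across the lungs. The deposited gene models begin further upstream, so the windows lie inside them in part or whole. Capitals mark 4 short motifs known from globin and erythroid promoters in general, searched on both strands. They are the CCAAT box with the letters CCAAT, the CACCC box with the letters CACCC, the GATA motif with the letters GATAA and the TATA motif with the letters TATAA.
Hbb-bs, chr7:103827929-103828078, minus strand: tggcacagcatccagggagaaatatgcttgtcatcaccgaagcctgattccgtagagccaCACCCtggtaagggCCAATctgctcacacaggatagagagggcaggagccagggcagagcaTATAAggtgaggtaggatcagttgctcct
Hbb-bt, chr7:103813924-103814073, minus strand: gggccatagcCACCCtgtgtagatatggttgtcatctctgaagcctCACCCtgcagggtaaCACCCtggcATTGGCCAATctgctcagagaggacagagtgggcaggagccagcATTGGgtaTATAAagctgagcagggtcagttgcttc
Hba-a1, chr11:32283522-32283671, plus strand: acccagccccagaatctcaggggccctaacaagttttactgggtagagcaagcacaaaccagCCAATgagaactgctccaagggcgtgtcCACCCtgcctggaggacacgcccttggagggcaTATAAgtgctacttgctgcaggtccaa
Alas2, chrX:150547267-150547416, plus strand: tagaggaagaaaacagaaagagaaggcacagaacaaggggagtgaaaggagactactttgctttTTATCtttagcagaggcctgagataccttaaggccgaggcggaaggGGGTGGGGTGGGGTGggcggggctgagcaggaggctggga

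Each of the 4 globin windows held the CCAAT, the CACCC and the TATA motif, with TATAA starting at -29 in Hbb-bs, -28 in Hbb-bt, -27 in Hba-a1 and -30 in Hba-a2. In Hbb-bt, the CCAAT box directly follows its own reverse complement ATTGG, and CACCC occurs 3 times. The Alas2 window held CACCC only as its reverse complement GGGTG, end to end from -40, -35 and -30, and the GATA motif as TTATC at -86. It held neither the CCAAT box nor the TATA motif. Of all 32851 promoter entries cut to the same length, 24.5% held the CCAAT box, 37.4% the CACCC box, 13.3% the GATA motif and 14.2% the TATA motif. The Hba-a2 window shares 147 aligned bases with that of Hba-a1, against 112 between Hbb-bs and Hbb-bt. Slc4a1 had no entry. These matches describe letters in a window and not bound sites.

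FPKM values, fragments per kilobase of gene and per unit of mapped reads, were whole multiples of 1 read per sample, which gave 15483046 to 19026843 reads on genes. The groups differed in more than the operation. Xist, transcribed from the inactive X chromosome, was at 26.8 to 43.2 FPKM in the IPF lungs and at most 0.0767 in the sham lungs. Ddx3y, a Y-linked gene, was at 0 in every IPF lung and at 14.3 to 21.4 FPKM in the sham lungs. By these genes, every IPF lung was female and every sham lung male. The clock genes were as separate, with Arntl at 3.31 to 6.85 FPKM in IPF and at most 0.452 in sham, and Dbp at 1.74 to 3.49 against 23.2 to 29.3. Operation, sex and clock phase therefore cannot be told apart in any comparison of the groups. Sham replicate 1 had the most genes above 0, 25486 against 22475 to 23575 in the other lungs, and results that depend on it are given without it. The markers of lung itself were high, with Sftpc, a surfactant protein, at 9437 to 16514 FPKM.

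Hemoglobin mRNA was present in every lung and varied widely within both groups, and none of the 6 genes differed between the groups past the test. The fitted differences, which compare means on the log2 scale, were below 0 for all 6, and all 6 confidence intervals crossed 0. The group medians in FPKM went the other way for 5 of the 6 genes, with Hbb-bs at 1358 in IPF and 801 in sham and Hba-a1 at 1069 and 721, and Slc4a1 as the exception at 0.854 and 1.01. The mean FPKM of Hba-a2 was also higher in IPF, at 107 ± 86.9 against 89.0 ± 42.1 (SD, n = 5 each), so the direction depends on the summary used. The range across lungs was 10.6-fold for Hbb-bs, 13.0-fold for Hbb-bt, 10.7-fold for Hba-a1, 12.9-fold for Hba-a2, 12.3-fold for Alas2 and 6.22-fold for Slc4a1. In bulk tissue, fewer red cells and less mRNA per red cell cannot be told apart.

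Hbb-bs, the β gene with the higher FPKM in these lungs, had the highest mean level of the 6. In IPF replicates 1 to 5 it was at 236, 1358, 154, 1546 and 1575 FPKM. In sham replicates 1 to 5 it was at 300, 1640, 651, 1539 and 801 FPKM. IPF replicates 1 and 3 lay below every sham lung, and the other 3 IPF lungs lay near the highest sham lungs. The group means were 974 ± 716 and 986 ± 581 FPKM (SD, n = 5 each). The log2 fold change of IPF against sham was -0.34 (SE 0.73, 95% interval -1.95 to 1.27, adjusted p = 0.851 by limma), a ratio of 0.789 with limits of 0.259 and 2.40.

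Hba-a1, the α gene with the higher FPKM, had a like order of lungs. In IPF replicates 1 to 5 it was at 190, 1069, 120, 1271 and 1273 FPKM. In sham replicates 1 to 5 it was at 427, 1198, 531, 1282 and 721 FPKM. The same 2 IPF lungs, replicates 1 and 3, were the lowest of the 10, and sham replicate 4 was the highest. The log2 fold change was -0.54 (SE 0.69, 95% interval -2.04 to 0.97, adjusted p = 0.726).

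Hbb-bt, the β gene with the lower FPKM, was at 22.9, 142, 15.7, 184 and 205 FPKM in IPF replicates 1 to 5. It was at 37.5, 195, 79.4, 180 and 101 FPKM in sham replicates 1 to 5. IPF replicates 1 and 3 lay below all sham lungs and IPF replicate 5 above them. The log2 fold change was -0.49 (SE 0.77, 95% interval -2.17 to 1.19, adjusted p = 0.78).

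Hba-a2, the second α gene, was at 14.8, 128, 16.8, 190 and 186 FPKM in IPF replicates 1 to 5. It was at 46.2, 159, 74.5, 83.2 and 81.8 FPKM in sham replicates 1 to 5. Here sham replicate 4, among the highest for the other globins, stood near the middle, and IPF replicates 4 and 5 exceeded every sham lung. The log2 fold change was -0.34 (SE 0.75, 95% interval -1.99 to 1.30, adjusted p = 0.853).

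Alas2 was far below Hbb-bs and Hba-a1 in FPKM but varied with the globins. It was at 3.64, 20.2, 2.27, 27.9 and 24.6 FPKM in IPF replicates 1 to 5. It was at 11.4, 27.3, 11.0, 22.7 and 18.1 FPKM in sham replicates 1 to 5. IPF replicates 1 and 3 again lay below all others, and the remaining lungs of both groups overlapped. The log2 fold change was -0.71 (SE 0.67, 95% interval -2.19 to 0.77, adjusted p = 0.614), the largest difference of the 6.

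Slc4a1 was low and did not vary with them. It was at 0.697, 0.699, 0.854, 1.20 and 1.70 FPKM in IPF replicates 1 to 5, from 57 to 147 reads. It was at 0.558, 1.01, 1.26, 0.565 and 3.47 FPKM in sham replicates 1 to 5, from 45 to 259 reads. Sham replicate 5 was the highest lung and all IPF lungs fell within the range of the sham group. The log2 fold change was -0.15 (SE 0.44, 95% interval -1.10 to 0.81, adjusted p = 0.897).

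**Figure D1:**
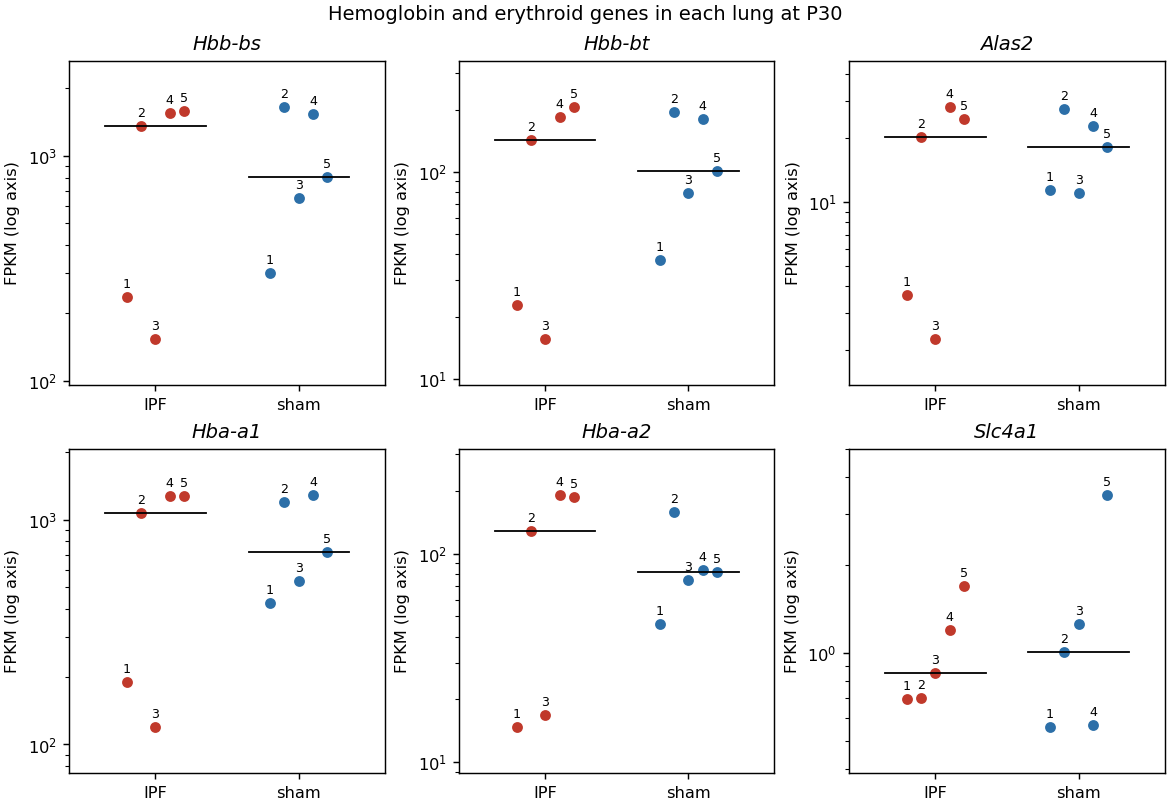
FPKM on a log axis of the 6 genes in each lung, with points for lungs, replicate numbers above them and lines at the group medians. IPF replicates 1 and 3 are the lowest lungs for the 4 globins and Alas2, while Slc4a1 is highest in sham replicate 5 at 3.47 FPKM.

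Of the 6 genes, 0 were called at an adjusted p under 0.05, where 5.85% of all tested genes were (1196 of 20448), and 0 passed both limits, where 1.14% did (233). With no adjustment, 0 of the 6 had a p under 0.05, where 19.5% of all tested genes did, and limma voom on the recovered reads also called 0, where it called 7.16% of all genes (1464). The lowest adjusted p of any of the 6 under any alternative was 0.360, for Alas2. The median log2 fold change of the 4 globins was -0.42, beside 0.0016 over all genes tested. The intervals are wide, with limits between 0.222 and 2.46 for the IPF to sham ratios of the globins, so the tests do not show that the groups had the same amount of hemoglobin mRNA.

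The width of those intervals comes with the spread between lungs of one group. The SD of log2 values within groups was 1.36 for Hbb-bs, 1.43 for Hbb-bt, 1.27 for Hba-a1, 1.39 for Hba-a2, 1.26 for Alas2 and 0.792 for Slc4a1. The median gene had an SD of 0.227, and the median of the 368 genes with a mean of at least 100 FPKM was 0.162. Among those 368 abundant genes, Hbb-bt, Hbb-bs and Hba-a1 had the 3 largest SDs, and the next was Scgb1a1, a secretory protein of the airway, at 0.927. At a mean of 980 FPKM, Hbb-bs ranked 20 of all genes and Hba-a1, at 808, ranked 24. Hbb-bt (116 FPKM) ranked 311, Hba-a2 (98.1) 381, Alas2 (16.9) 3268 and Slc4a1 (1.20) 12969. Levels of different genes are compared here only as FPKM, which is per length.

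**Figure D2:**
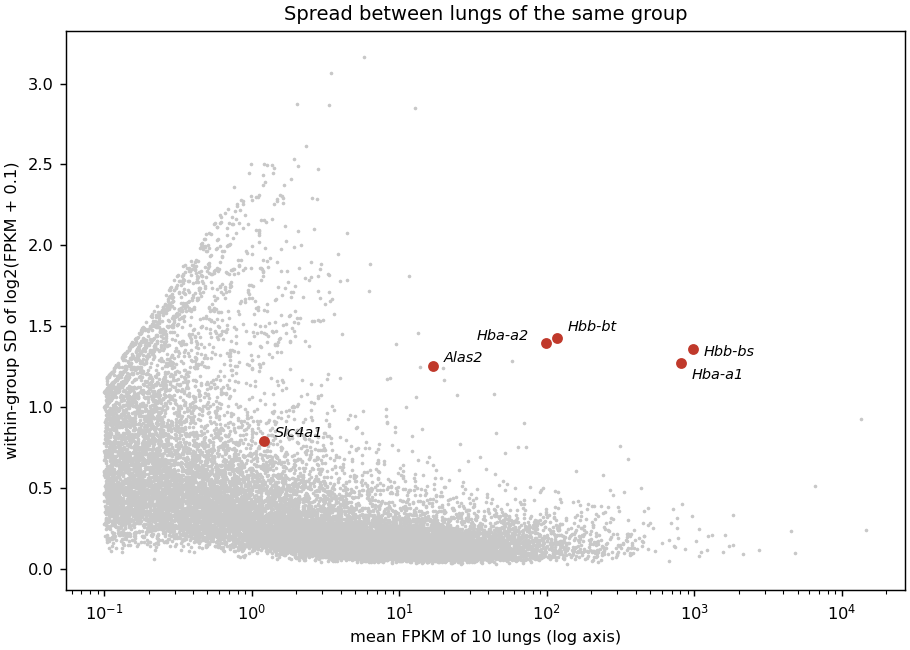
Within-group SD of log2(FPKM + 0.1) against mean FPKM (log axis) for the 20448 genes tested in gray, with the 6 genes in red. The globins and Alas2 lie between 1.26 and 1.43, above nearly all genes of like abundance, and Slc4a1 lies at 0.792.

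The summed FPKM of the 4 adult globins gave 1 value per lung. It was 463, 2697, 307, 3190 and 3239 in IPF replicates 1 to 5 and 811, 3192, 1336, 3084 and 1704 in sham replicates 1 to 5. As a share of reads on genes, adult globins took 0.0237% in IPF replicate 3 (95% Wilson interval 0.02298 to 0.02436%) and 0.249% in sham replicate 2 (0.2468 to 0.2515%). These intervals cover counting error only, and they are narrow next to the differences between lungs. The highest share of any library was that 0.249%, and scaling to a total without the globin reads left all 6 fold changes with the same sign. The log2 difference of the sums was -0.44 (SE 0.83, exact permutation p = 0.595, adjusted p = 0.694 over 7 ratios and sums). Against the geometric mean FPKM of 7 endothelial markers, the ratio of the summed globins was 3.40, 22.2, 2.41, 24.0 and 22.4 in IPF and 6.75, 27.7, 11.5, 26.7 and 14.1 in sham, and the groups again did not separate (exact permutation p = 0.444, adjusted p = 0.689). The smallest two-sided p that 5 lungs against 5 can give is 0.00794, which for 1 of the 7 ratios and sums by itself adjusts to 0.0556.

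In both groups, replicates 1 and 3 were the 2 lowest lungs for summed globins and replicates 2 and 4 among the 3 highest. The labels do not say what a replicate number stands for. Across all genes, same-numbered lungs did not deviate together.

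Outside sham replicate 1, the ratio of summed α to summed β globin varied little while the summed globins ran from 307 to 3239 FPKM. It was 0.790, 0.798, 0.802, 0.845 and 0.819 in IPF replicates 1 to 5. It was 1.40, 0.740, 0.829, 0.794 and 0.890 in sham replicates 1 to 5. Sham replicate 1 stood apart, with 473 FPKM of α against 337 of β, and the other 9 lungs lay between 0.740 and 0.890. The mean log2 difference between groups was -0.16 (SE 0.16, exact permutation p = 0.492, adjusted p = 0.689). Without sham replicate 1 it was -0.0017.

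Within the β pair, the ratio of Hbb-bt to Hbb-bs was 0.117 to 0.126 in the 5 sham lungs. In IPF replicates 1 to 5 it was 0.0974, 0.105, 0.102, 0.119 and 0.130, so 3 lungs lay below all sham lungs and 1 above. The log2 difference was -0.15 (SE 0.08, exact permutation p = 0.135, adjusted p = 0.583). Within the α pair, the ratio of Hba-a2 to Hba-a1 was 0.0785, 0.120, 0.141, 0.150 and 0.146 in IPF and 0.108, 0.133, 0.140, 0.0650 and 0.114 in sham. IPF replicate 1 and sham replicate 4 were the low lungs, 1 in each group (difference 0.19, exact permutation p = 0.468, adjusted p = 0.689). How reads that match both copies were counted is not stated, so both ratios are uncertain.

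**Figure D3:**
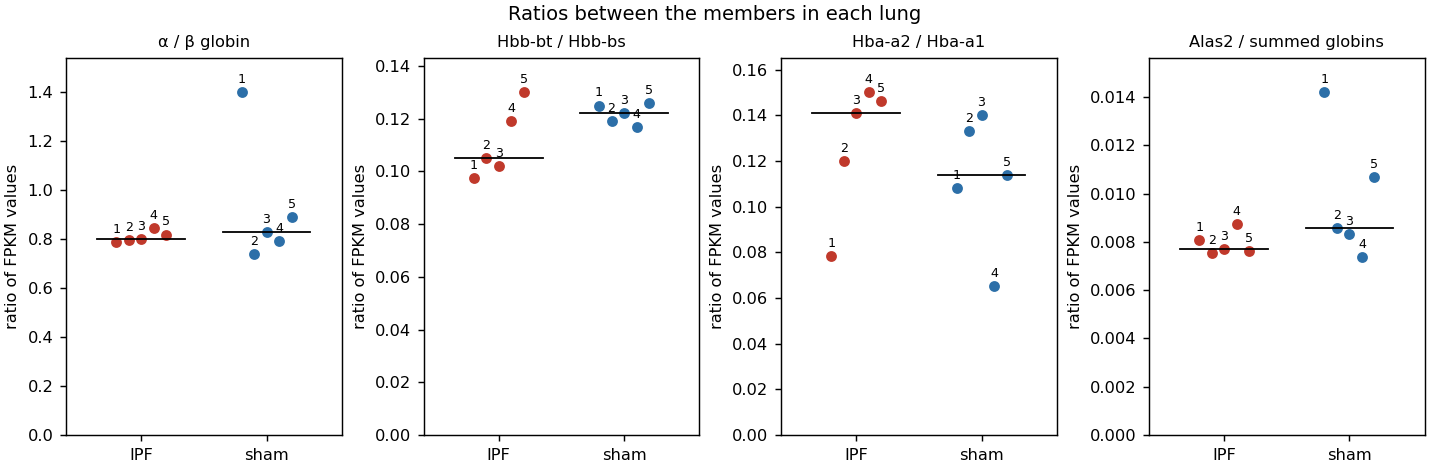
Ratios of FPKM values in each lung, on axes from 0, with replicate numbers and group medians. The α to β ratio of sham replicate 1 is 1.40 and the other 9 lungs lie between 0.740 and 0.890, and Alas2 per summed globin is highest in the same lung.

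Alas2 per summed globin was 0.00754 to 0.00876 in the IPF lungs. In sham replicates 1 to 5 it was 0.0142, 0.00858, 0.00832, 0.00738 and 0.0107. Sham replicate 1 was again the highest, followed by sham replicate 5 (log2 difference -0.27, SE 0.17, exact permutation p = 0.167, adjusted p = 0.583). Without sham replicate 1 the difference was -0.13. Slc4a1 per summed globin ranged from 2.16e-04 in sham replicate 4 to 0.00311 in IPF replicate 3 (log2 difference 0.29, SE 0.87, exact permutation p = 0.738, adjusted p = 0.738).

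Across the 10 lungs, β rose with α globin and Alas2 rose with both. On the log2 scale, r was 0.980 for summed β against summed α (rho 0.915), with a permutation p of 3.00e-05 and 7.50e-05 adjusted over 5 relations. For Alas2 against summed globins, r was 0.973 (rho 0.939, permutation p = 3.00e-05, adjusted 7.50e-05). Without IPF replicates 1 and 3, the lungs farthest from the median, these were 0.977 and 0.935, and on deviations from the group means 0.983 and 0.979. Slc4a1 did not show the relation, with r = 0.245 (rho 0.382, permutation p = 0.500, adjusted p = 0.833) and 0.0655 without those lungs. The mean log2 level of platelet markers had r = -0.08 (rho 0.0788, permutation p = 0.833, adjusted p = 0.833). That of neutrophil markers had r = -0.10 (rho 0.00606, permutation p = 0.790, adjusted p = 0.833). With 10 lungs, weak relations could not be detected.

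The genes most like the globins were sought among the 13445 genes with a mean of at least 1 FPKM, by r over 10 lungs with the mean log2 level of the 4 globins. Bpgm, the red cell enzyme that makes 2,3-bisphosphoglycerate, had r = 0.964. It was at 8.74, 17.3, 10.1, 17.9 and 17.6 FPKM in IPF and at 11.7, 17.0, 12.2, 17.3 and 14.8 FPKM in sham replicates 1 to 5. The lungs low in globins, IPF replicates 1 and 3, were also the lowest for Bpgm, which changed by 0.282 log2 units for each unit of globin. Others were 9130401M01Rik (0.955), Gnl3 (0.919), Gm10709 (0.899), Fam220a (0.893), Phf7 (0.888), Cr1l (0.881), Rab24 (0.860) and Pcna (0.857). Gm10709, a processed pseudogene, had a slope of 0.298 and ran from 3.92 to 10.5 FPKM. The slopes of the other 7 were 0.0572 to 0.157. The median r of those 13445 genes was 0.0280. These r values are a ranking over the same 10 lungs and carry no test.

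**Figure D4:**
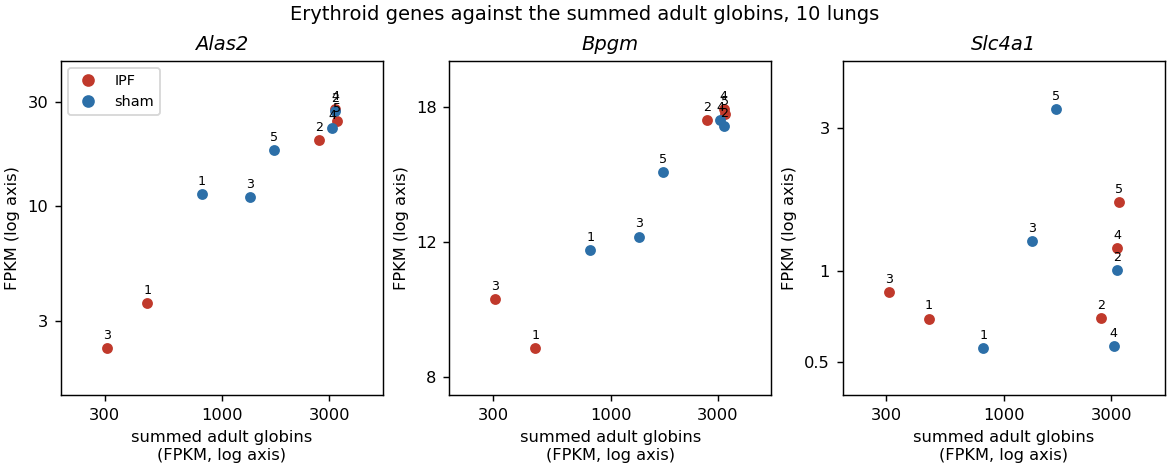
FPKM of Alas2, Bpgm and Slc4a1 against the summed FPKM of the adult globins in 10 lungs, both axes log, IPF in red and sham in blue with replicate numbers. Alas2 and Bpgm climb with the globins in both groups, and Slc4a1 does not, with sham replicate 5 at 3.47 FPKM.

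Embryonic globins were near or at 0. Hbb-bh1 and Hbb-bh2 had 0 reads in all 10 lungs, where 3 reads would be 0.259 to 0.321 FPKM and 0.284 to 0.353 FPKM. Hba-x had 1 read in all and Hbb-y had 9. The minor α-like genes Hbq1a and Hbq1b had 18 and 26 reads. Of 2 genes of this list that were tested, 0 were called, 0 had an unadjusted p under 0.05 by limma and 0 were called by voom. Among other proteins with a globin fold, Cygb, cytoglobin, was at 10.9 to 20.6 FPKM in IPF and 16.2 to 23.2 in sham (log2 fold change -0.53, adjusted p = 0.0695). Ngb, neuroglobin, was at 2.62 to 3.32 FPKM in IPF and 1.27 to 2.58 in sham (log2 fold change 0.55, adjusted p = 0.0897). None of the 4 passed the test by limma, with 2 at an unadjusted p under 0.05 and 1, Cygb, called lower by voom. Mb, myoglobin, stood out in IPF replicate 4 at 8.09 FPKM and sham replicate 3 at 5.22 FPKM, against at most 0.161 in the others. Of 6 cardiac muscle genes, 4 were far higher in the same 2 lungs than in the others, with Myl7 at 63.9 and 55.2 FPKM against at most 2.85, Myh6 at 18.7 and 15.3 against at most 0.148, Tnni3 at 10.5 and 7.61 against at most 0.730, and Tnnt2 at 4.72 and 4.05 against at most 1.40. Actc1 was at 58.0 and 60.8 FPKM there but at 51.8 in IPF replicate 3, and Nppa had 1 read over all 10 lungs.

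Over all genes tested, 3.71% were called higher in IPF and 2.14% lower, the shares beside which the counts of the lists stand. By voom the shares were 4.11% higher and 3.05% lower. Of the heme synthesis genes, 0 rose and 2 fell of 11 tested, with a median log2 fold change of -0.09. Alas1, the housekeeping counterpart of Alas2, was at 22.6, 23.0, 40.9, 25.8 and 26.3 FPKM in IPF and at 42.4, 44.4, 43.5, 48.6 and 35.7 FPKM in sham replicates 1 to 5. It fell by 0.66 on the log2 scale (SE 0.15, adjusted p = 0.0257), although IPF replicate 3 lay within the sham range. Cpox, coproporphyrinogen oxidase, was at 4.16 to 4.93 FPKM in IPF and 5.20 to 6.30 in sham, without overlap, and fell by 0.34 (adjusted p = 0.0253). Without sham replicate 1, Alas1 had an adjusted p of 0.0637 and Cpox of 0.0511. The Alas1 call was kept in 12 of 20 alternatives and the Cpox call in 15, and in 3 and 5 of the 10 that left out 1 lung. Fech, which inserts iron into the porphyrin ring, was at 16.6 to 20.2 FPKM in IPF and 19.2 to 20.4 in sham (adjusted p = 0.363).

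Of the red cell membrane genes, 0 rose and 1 fell of 14 tested, with a median of -0.05. The gene that fell was Tmod1, tropomodulin, which caps actin filaments in red cells and in muscle. It was at 5.55 to 8.74 FPKM in IPF and 10.6 to 15.9 in sham, and fell by 0.94 (SE 0.14, adjusted p = 0.00328). Aqp1, a water channel of red cells and lung endothelium, was at 336 to 404 FPKM in IPF and 301 to 357 in sham (adjusted p = 0.388). Epb41 and Gypc had adjusted p values of 0.114 and 0.0582 by limma. By voom, 1 gene of the list was called higher, Gypc (adjusted p = 0.0454), and 2 lower, Tmod1 and Epb41 (adjusted p = 0.0432 for Epb41).

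Of the erythroid transcription factors, 2 rose and 0 fell of 10 tested, with a median of 0.07. Lmo2 was at 37.6 to 43.1 FPKM in IPF and 23.1 to 30.2 in sham and rose by 0.61 (SE 0.08, adjusted p = 0.00136). Tal1 was at 7.01 to 8.06 FPKM in IPF and 5.52 to 6.89 in sham and rose by 0.28 (adjusted p = 0.043). Both are known to act in endothelial cells as well as in red cell precursors. The Tal1 call was kept in 6 of 20 alternatives, and without sham replicate 1 its adjusted p was 0.0752. Voom also called 2 genes higher and 0 lower, but these were Lmo2 and Nfe2, with Tal1 at an adjusted p of 0.0509. Nfe2, a factor of red cell precursors and megakaryocytes, was at 1.63 to 2.99 FPKM in IPF and 1.16 to 1.79 in sham (log2 fold change 0.63, adjusted p = 0.0528 by limma and 0.0342 by voom), and it was called in 5 of 20 alternatives. The factors more restricted to erythroid cells were low, with Gata1 at 0.123 to 0.588 FPKM and Klf1 at 0 to 0.686 FPKM over the 10 lungs (adjusted p = 0.347 and 0.677). Ldb1 and Zfpm1 had adjusted p values of 0.558 and 0.865.

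Of the late erythroid and reticulocyte genes, 1 rose and 0 fell of 18 tested, with a median of 0.03. Car2, carbonic anhydrase 2, was at 59.3 to 64.2 FPKM in IPF and 34.9 to 47.7 in sham and rose by 0.61 (SE 0.08, adjusted p = 0.00158). Its groups did not overlap, unlike those of Bpgm (log2 fold change -0.07, adjusted p = 0.899). Cat, Bnip3l and Tmcc2, the most abundant of the list with Car2, had adjusted p values of 0.488, 0.539 and 0.765.

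Of the genes for clearance of hemoglobin, heme and iron, 3 rose and 1 fell of 15 tested, with a median of 0.18. Slc40a1, ferroportin, the iron exporter, was at 2.49 to 3.73 FPKM in IPF and 1.86 to 2.19 in sham and rose by 0.56 (SE 0.11, adjusted p = 0.014). Slc11a1, an iron transporter of phagocyte lysosomes, rose by 0.67 (adjusted p = 0.0259), and Cp, ceruloplasmin, by 0.43 (adjusted p = 0.0498). Cd163, the macrophage receptor for hemoglobin bound to haptoglobin, was at 1.36 to 2.54 FPKM in IPF and 2.76 to 3.90 in sham and fell by 0.72 (adjusted p = 0.0201). Without sham replicate 1, Cd163 had an adjusted p of 0.0552 and Cp of 0.0854, and 2 genes of the list rose and 0 fell. The Slc40a1 call was kept in all 20 alternatives, that of Cd163 in 17, of Slc11a1 in 16 and of Cp in 5, with Slc11a1 called in 6 and Cp in 1 of the 10 that left out 1 lung. Hmox1, heme oxygenase, was at 16.3 to 22.1 FPKM in IPF and 13.7 to 15.0 in sham (adjusted p = 0.052). Fth1, Ftl1, Hp and Slc48a1, the most abundant of the list, had adjusted p values of 0.511, 0.458, 0.877 and 0.259.

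**Figure D5:**
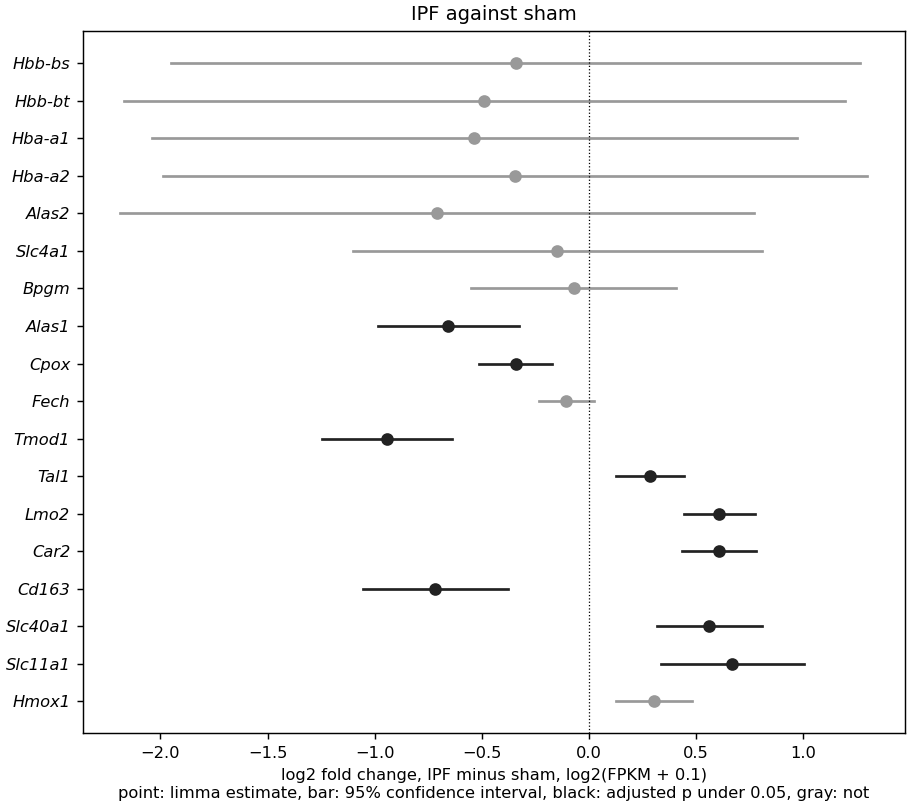
Log2 fold changes of IPF against sham with 95% confidence intervals for the 6 genes and for 12 related genes, black where the adjusted p was under 0.05. The intervals of the globins and Alas2 span about 3 log2 units, while those of Lmo2, Car2 and Tmod1 lie clear of 0.

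In the hypoxia and erythropoietin list, 0 of 6 genes were called, with 1 at an unadjusted p under 0.05 and 0 called by voom. Epo itself had 0 reads in all 10 lungs, where 3 reads would be 0.186 to 0.230 FPKM. Epas1, abundant in lung endothelium, was at 618 to 955 FPKM in IPF and 725 to 896 in sham (adjusted p = 0.873). Hif1a, Egln1 and Vhl had adjusted p values of 0.462, 0.268 and 0.237.

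Markers of other blood cells were measured beside the globins, and their part in the results was not tested. Of 12 platelet genes, 0 were called by limma or voom and 3 had an unadjusted p under 0.05, with a median of 0.02. Pf4 was at 8.56 to 17.2 FPKM in IPF and 6.14 to 9.98 in sham (adjusted p = 0.112), and Ppbp, Nrgn and Tubb1 had adjusted p values of 0.238, 0.218 and 0.614. Of 14 neutrophil genes, 12 had positive estimates with a median of 0.88, where 10298 of all 20448 tested genes had positive estimates. Past the test, 0 rose and 1 fell by limma and by voom, and 7 had an unadjusted p under 0.05. The summed neutrophil markers were 80.1 to 334 FPKM in IPF and 48.8 to 122 in sham, and the IPF lungs other than replicate 5 reached at most 119. S100a9 was at 29.3 to 185 FPKM in IPF and 7.44 to 40.1 in sham (adjusted p = 0.186), and S100a8 and Retnlg had adjusted p values of 0.255 and 0.311. Csf3r was at 3.49 to 11.4 FPKM in IPF and 2.00 to 3.40 in sham (adjusted p = 0.133). Mmp9 was at 1.88 to 6.16 FPKM in IPF and 0.899 to 1.63 in sham (adjusted p = 0.1). Mmp8 had an adjusted p of 0.0924. Lcn2, which airway cells also make, fell by 0.73 (adjusted p = 0.0291), a call kept in 14 of 20 alternatives and in 6 of the 10 that left out 1 lung. All 6 B cell genes rose, with a median of 0.85, among them Cd79a by 1.02 (adjusted p = 0.00591), and 1 of 7 T cell genes did, Cd4 (adjusted p = 0.044). All 7 T cell genes had positive estimates, with a median of 0.48. The calls of 5 of the B cell genes were kept in all 20 alternatives and that of Cd79b (adjusted p = 0.0254) in 13, with 5 of the 10 that left out 1 lung. The Cd4 call was kept in 8 of 20 alternatives, with an adjusted p of 0.0848 without sham replicate 1 and 0.0541 by voom.

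Of 7 endothelial genes, 1 rose, Cldn5, a tight junction protein, by 0.56 (adjusted p = 0.0107), with a median of 0.12 over the list and 3 genes at an unadjusted p under 0.05. Voom called 2 higher, Cldn5 and Tek, the latter at 116 to 144 FPKM in IPF and 94.9 to 111 in sham (adjusted p = 0.0636 by limma and 0.0293 by voom). Of 9 alveolar epithelial genes, 0 were called, with 1 at an unadjusted p under 0.05 and 1 called lower by voom, and the median was -0.01. Of 5 cardiac muscle genes and 5 proliferation genes tested, 0 were called in either list, 0 had an unadjusted p under 0.05 and 0 were called by voom. Of 4 liver genes, only Alb was tested, at 0.319 to 0.745 FPKM (adjusted p = 0.846). All 5 sex-linked and all 6 clock genes were called.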

How the data were processed

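Whole-lung mRNA of 5 IPF and 5 sham mice was analysed. Per the study's methods, paired reads went through Fastp for trimming, HISAT2 for alignment and StringTie for quantification, and the authors deposited 1 FPKM value for each gene in each sample, beside the gene's length. The methods name GRCm39, but the deposited positions are those of GRCm38, since the last gene of chromosome 1 ends at 195323493. The submitters' processing notes list Bowtie 0.12.2 and the builds hg38, GRCm38 and mm10. The methods name a KAPA library kit and the labels NEBNext. Raw reads and DESeq2, which needs counts, were not used here.

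Reads were recovered from FPKM times gene length, within 0.02 reads of a whole number. Genes averaging 0.1 FPKM or more were tested with limma 3.58.1 (R 4.3.3, trended empirical Bayes) on log2(FPKM + 0.1), IPF against sham, with Benjamini-Hochberg adjustment over 20448 genes. Calls needed an adjusted p under 0.05, and passing both limits needed a log2 fold change beyond 1 in size as well. This scale understates the fold changes of low genes. The fit was tested on simulated data. Sums and ratios of FPKM were tested by two-sided exact permutation with adjustment over 7, and 5 relations across samples by 100000 resamples. Nothing states that lungs of 1 group came from separate litters, so p-values measure the spread between these samples. Libraries differed by more than sampling noise, so none was a copy.

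The genes and lists were chosen with earlier results of these data known. Named genes are the 6 genes, the called genes and up to 4 most abundant genes of each list, Xist, Ddx3y, Arntl and Dbp, and the 10 genes with the highest r to the globins, except where an item is not reported here. Other named list genes were chosen after their values were seen. Fewer are named for lists that only mark other cells, sex or clock. Alternatives were other pseudocounts, filters and scalings, no variance trend, the replicate number as a block, limma voom, and leaving out each sample. Promoter letters come from RefSeq and transcripts from GENCODE vM39. Python 3.11.15, pandas 2.3.3 and scipy 1.17.1 were used.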

Additional observations from a re-analysis of the deposited data

Results flagged for a closer look

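In 4 measures there was a lung whose gap to its nearest neighbor was large for a group of 5, out of 44 groups of 5 values examined, where chance alone flags about 1 in 20. Slc4a1 in sham replicate 5, at 3.47 FPKM, lay beyond the other sham lungs by 0.759 of the range of the group, on the FPKM scale and not on the log2 scale. The α to β globin ratio of sham replicate 1, at 0.49 on the log2 scale, lay beyond the others by 0.712 of the range. The summed neutrophil markers of IPF replicate 5, at 334 FPKM, lay beyond by 0.847 of the range, and the summed platelet markers of IPF replicate 1, at 36.8 FPKM, lay below by 0.714. The cause of each was not tested.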

How the results depend on the processing

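None of the 6 genes passed the test under any alternative. A ratio or sum alone could not have passed it, since the smallest adjusted p that 1 of the 7 can reach by itself is 0.0556 with all lungs and 0.111 with 1 left out, so their not passing says nothing about stability. Over both kinds, 9 of 197 alternative values changed sign, all on leaving out 1 lung. Hbb-bs became 0.03 without IPF replicate 1 and 0.18 without IPF replicate 3 (range -0.71 to 0.18). Hbb-bt became 0.0588 without IPF replicate 3 (-0.86 to 0.06). Hba-a2 became 0.19 and 0.14 without IPF replicates 1 and 3 (-0.73 to 0.19). Slc4a1 became 0.25 without sham replicate 5 (-0.36 to 0.25). The summed globins became 0.086 without IPF replicate 3 (-0.76 to 0.09). The Slc4a1 to globin ratio became -0.19 without IPF replicate 3 and -0.11 without sham replicate 4 (-0.19 to 0.71). Hba-a1 ranged from -0.86 to -0.0032 and Alas2 from -1.06 to -0.17 without changing sign. The genes called at an adjusted p under 0.05 ranged from 748 without IPF replicate 4 to 1619 without IPF replicate 5, with 788 without IPF replicate 2 and 797 without sham replicate 3. The genes past both limits ranged from 164 to 303 on the same omissions, and were 74 with a pseudocount of 1 and 154 with a mean FPKM of at least 1. The causes were not tested.

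Over all genes tested, same-numbered lungs did not deviate together (correlations -0.0204 to 0.0953). A measure over all genes cannot decide whether lungs are paired for a few genes such as the globins. The summed globins were lowest in replicates 1 and 3 of both groups. With the replicate number as a block, 1045 and 202 genes passed, Alas2 was at -0.71 (adjusted p = 0.360) and Hbb-bs at -0.34 (adjusted p = 0.660).

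The wide spread between lungs limits the globin comparison more than depth does, since Hbb-bs rested on 129212 reads. Depth limits Klf1 (51 reads in all) and the minor globins.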

Other observations

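Likeness to Slc4a1 was ranked after its departure from the globins was seen. Among genes with a mean of at least 1 FPKM, the closest were on none of the lists, namely Alox5 (r = 0.897), Tubgcp5 (0.897), Cidec (0.886), Ehhadh (0.880) and Itgb1 (0.880). Of 14 red cell membrane genes, 3 had r above 0.8 to Slc4a1 over the 10 lungs, Ermap (0.866), Sptb (0.851), a β-spectrin, and Rhag (0.840), where 0.215% of all tested genes did. Over all lungs there were 837 reads for Sptb, 165 for Ermap and 47 for Rhag, and the r values are a description over the same 10 lungs. All 3 were highest in sham replicate 5, as were Klf1 (0.686 FPKM, 16 reads) and Slc4a1.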
